A study of Mus musculus with 4 samples.

Results

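The genes for mitochondrial ribosomal proteins were taken from the NFIC peak list of mouse pancreas by their symbols, *Mrpl* or *Mrps* followed by a number. Of the 78 such protein-coding genes in the RefSeq annotation of GRCm38.p6, 25 had 1 or more peaks assigned to them, and together these 25 genes held 42 of the 15824 peaks. The symbols in the list and those that RefSeq gives for the same gene numbers were the same for all 42 peaks. Chromatin came from the whole pancreas of wild-type mice aged 8 to 12 weeks by the deposited description, or 8 to 10 weeks by the study's results section. The strain is labelled only as mixed, where the methods give a predominant C57BL/6 background for the mouse crosses, and all libraries share this background. NFIC was precipitated with an anti-NFIC antibody in 3 libraries, sequenced with 1 of input DNA. The authors deposited only 1 merged list with no value for a single library, and whole pancreas mixes cell types. No spread between libraries can therefore be given, the depth of each library is unknown, and no test across samples was possible. The intervals given are 95% Wilson intervals of a share, or order-statistic intervals of a median, and cover only the small number of genes or peaks counted. Those over peaks treat the peaks as independent, although 10 of the 25 genes had 2 or more, so they can be too narrow.

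NFIC belongs to the nuclear factor I (NFI) transcription factors, which bind DNA as dimers at a palindrome of TTGGC and GCCAA with a spacer of any bases between them. Mitochondrial ribosomes translate the few mRNAs made inside the organelle, which code for subunits of the respiratory chain and of ATP synthase. All proteins of these ribosomes are coded in the nucleus, made in the cytosol and imported, so their amounts depend on nuclear promoters. Those promoters are known for CpG-rich DNA and for sites of ETS factors, NRF1, YY1 and SP factors. Acinar cells, the bulk of the pancreas, make large amounts of secreted enzymes and hold many mitochondria. *Mrpl* symbols stand mostly for proteins of the large subunit and *Mrps* symbols for those of the small subunit, although the products of *Mrps18a* and *Mrps30* are known as large subunit proteins and that of *Mrps36* as part of the alpha-ketoglutarate dehydrogenase complex.

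The sequences below show the NFI sites that the results turn on, on the plus strand of GRCm38 (mm10), with the searched letters in capitals. The peak in intron 1 of *Mrps23* held the only full site without a mismatch, TTGGC and GCCAA with 5 free bases between them, and another full site that begins 25 bp further on and has 1 mismatch. The intergenic peak upstream of *Mrpl1*, the intron 1 peak of *Mrpl23*, 3 distal peaks of *Mrps18a* and the promoter peaks of *Mrpl41* and *Mrpl34* are shown with the core letters, TGGC and GCCA with 5 free bases between them. The far upstream site of *Mrps18a* and both sites of *Mrpl34* have 1 mismatch to the core letters, and the other sites have none. *Mrpl34* is shown because its peak had the highest score of all 42. Both of its stretches lie wholly in annotated exons, outside coding sequence. The transcripts that these exons belong to were not looked up, and the distances given below for this peak are to the TSSs of curated transcripts.
Mrps23 intron 1, chr11:88197392-88197447: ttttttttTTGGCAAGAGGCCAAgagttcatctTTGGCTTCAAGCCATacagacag
Mrpl1 upstream, chr5:96207053-96207081: gaggctacTGGCATTTTGCCAggactgct
Mrpl23 intron 1, chr7:142533365-142533393: gcctgcttTGGCAGACAGCCAgggctgag
Mrps18a far upstream, chr17:46084263-46084291: gtttgattTGGCAGGGGCCCAactggcag
Mrps18a upstream, chr17:46093595-46093623: tccataagTGGCTTTTGGCCAagattttt
Mrps18a intron 2, chr17:46118673-46118701: aacctctcTGGCAGGCAGCCAaatatagt
Mrpl41 promoter, chr2:24975460-24975488: ccacagtcTGGCGCGTGGCCAagtctatg
Mrpl34 promoter, left, chr8:71464538-71464566: ggacatccGGGCCGCGCGCCAagagaagt
Mrpl34 promoter, right, chr8:71464632-71464660: gggtgaaaAGGCCAGCAGCCAgttctcca

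Most promoter peaks of these genes held neither form of the NFI site, and the stretches of *Mrpl17* and *Mrpl39* are shown as examples, in the direction of transcription. In *Mrpl17* the capitals mark an ETS match (CCGGAAG) that shares bases with an SP match (GGGCGG, here on the other strand), and a further SP match near the end. In *Mrpl39* they mark the letters searched for NRF1, GCGC and GCGC with 2 free bases between them. Both stretches lie outside annotated exons.
Mrpl17 promoter, minus strand, chr7:105811198-105811397: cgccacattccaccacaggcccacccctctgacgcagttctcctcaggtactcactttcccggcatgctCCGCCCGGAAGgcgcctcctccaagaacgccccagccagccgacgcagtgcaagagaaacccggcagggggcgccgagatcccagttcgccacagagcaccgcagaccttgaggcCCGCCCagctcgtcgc
Mrpl39 promoter, minus strand, chr16:84735264-84735463: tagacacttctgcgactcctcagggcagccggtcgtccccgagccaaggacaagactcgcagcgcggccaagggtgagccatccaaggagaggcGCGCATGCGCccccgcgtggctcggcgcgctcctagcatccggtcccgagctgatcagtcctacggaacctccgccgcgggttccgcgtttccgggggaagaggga

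The first question was how often NFIC peaks fell to these genes. A peak was assigned by the authors' annotation to the gene with the nearest transcription start site (TSS). Of the 78 genes, 25 (32.1%, interval 22.7 to 43.0%) were the nearest gene of a peak, where the share over all 21000 protein-coding genes was 37.2%. Among the genes for cytosolic ribosomal proteins, 26 of 87 (29.9%, 21.3 to 40.2%) had a peak. These 87 were taken by symbol, *Rpl* or *Rps* and a number without *Rps6k*. They can include genes outside the standard set, such as *Rpl37rt* and *Rps27rt*, which are among the 26. By symbol, 18 of 49 *Mrpl* genes (36.7%, 24.7 to 50.7%) and 7 of 29 *Mrps* genes (24.1%, 12.2 to 42.1%) had one. The intervals of these groups overlap one another, and that of the 78 genes holds the share over all genes.

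A peak in the promoter-TSS class, which in this list runs from 1000 bp upstream to 100 bp downstream of a TSS, was assigned to 13 of the 78 genes (16.7%, 10.01 to 26.5%). The share over all protein-coding genes was 14.2%, and 15 of 87 cytosolic ribosomal protein genes (17.2%, 10.7 to 26.5%) had such a peak. Both shares were thus near that of all genes. For the 78 genes the order turned when promoters were taken from -1000 bp to the TSS, with 8 genes (10.3%) beside 10.7% of all genes, and in the upper 2 quartiles of score, with 5 genes (6.41%) beside 6.98%. The class took 13 of the 42 peaks (31.0%, 19.1 to 46.0%), where it took 20.7% of all peaks.

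The peak of *Mrpl34* stood far above the other 41. It had a score of 31.3 and was centred 355 bp upstream of the TSS, which made it number 27 among the 15824 peaks of the list. The score is the authors' own, on a scale that the sources used here do not name, and serves only to rank peaks. The list places this peak in the promoter of *Abhd8*, a gene on the opposite strand whose TSS lies 914 bp from the peak centre and 1269 bp from that of *Mrpl34*.

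The other promoter peaks of *Mrpl* genes had scores near or below the median of all promoter-TSS peaks, 6.37, with the exception of *Mrpl1*. *Mrpl1*, for the protein of the mobile L1 stalk, had a peak with a score of 8.37 centred 37 bp upstream of the TSS. *Mrpl39*, for a protein with no bacterial counterpart, followed with a score of 6.37 at 62 bp upstream. *Mrpl44*, for a protein with a ribonuclease III-like fold, had a peak with a score of 5.58 centred on the TSS itself. All of these were weaker than that of *Mrpl34*. *Mrpl17* and *Mrpl30*, both for counterparts of bacterial ribosomal proteins, shared a score of 5.18, at 211 bp and 6 bp upstream. *Mrpl37* and *Mrpl41*, for proteins particular to mitochondrial ribosomes, shared a score of 4.98, at 40 bp downstream and 328 bp upstream. The lowest score of the 13, 4.58, was that of *Mrpl42*, at 57 bp downstream. The peaks of *Mrpl30*, *Mrpl37* and *Mrpl41* were placed by the list in the promoters of *Mitd1*, *Cyb5rl* and *Pnpla7*, neighbours on the opposite strand.

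The 4 promoter peaks of *Mrps* genes had a narrow range of scores, from 6.17 to 7.97. *Mrps31*, for a protein particular to mitochondrial ribosomes, had the highest, 7.97, at 60 bp downstream of the TSS. *Mrps14*, *Mrps16* and *Mrps15*, all for counterparts of bacterial small subunit proteins, had scores of 6.77, 6.57 and 6.17, at 320 bp upstream, 9 bp downstream and 14 bp downstream. Of these 4 peaks, 3 had a score at or above the median of the whole list (75%, 30.1 to 95.4%), and so had 2 of the 9 promoter peaks of *Mrpl* genes (22.2%, 6.32 to 54.7%). The intervals overlap, and both hold the 49.1% of all promoter-TSS peaks.

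A further 3 genes, all *Mrpl*, had a peak downstream of the promoter class but within 1000 bp of the TSS. *Mrpl23*, for a protein at the exit of the nascent chain tunnel, had a peak with a score of 11.0 in intron 1, at 208 bp in the list. *Mrpl36* had one with a score of 6.57 in its only intron, at 297 bp. *Mrpl15* had one with a score of 4.38 in the first exon of a non-coding transcript, at 128 bp. Only that of *Mrpl23* lay in the upper quartile of all scores, which began at 9.16.

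**Figure D1:**
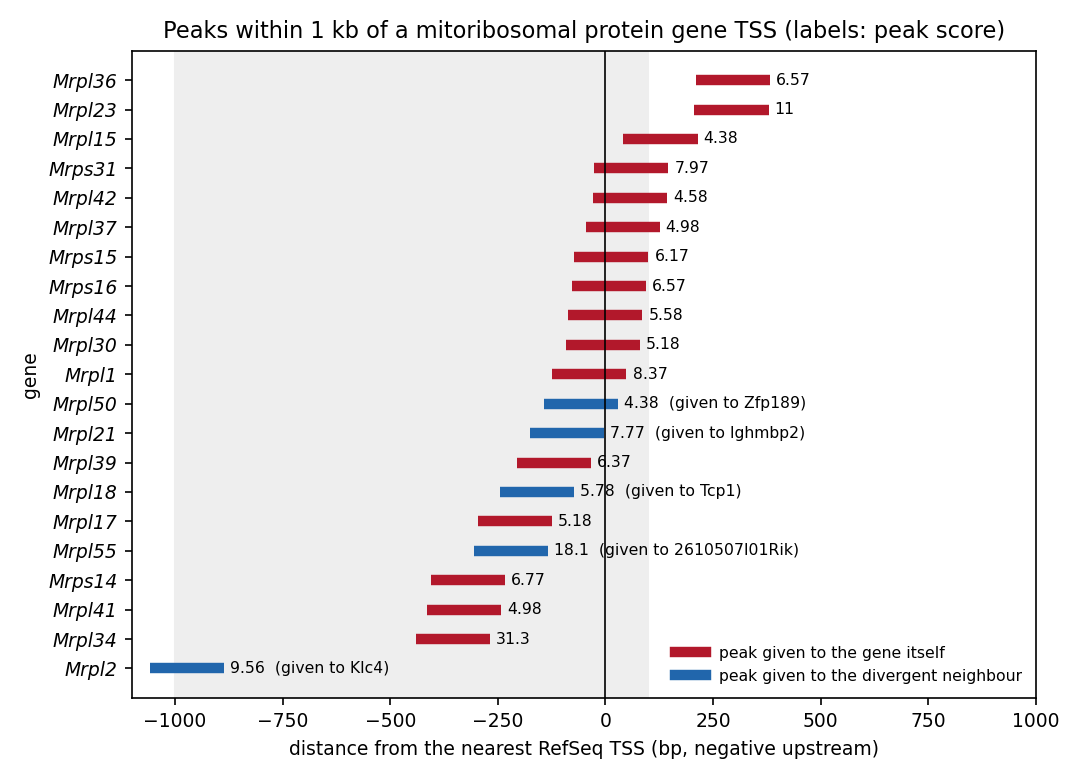
Peaks within 1000 bp of a RefSeq TSS of a mitochondrial ribosomal protein gene, with each bar drawn over the width of the peak, 173 bp, and its score beside it. The grey band runs from -1000 to 100 bp. The 5 blue peaks were given by the list to a divergent neighbour, and positions are from RefSeq, which puts the peak of *Mrpl39* at -120 bp and that of *Mrpl23* at 293 bp.

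Because the list gives each peak to 1 gene, genes that share a promoter with a neighbour can lose their peak to it. When every RefSeq TSS with a peak centre from -1000 to 100 bp was counted, 18 of the 78 genes (23.1%, 15.1 to 33.6%) had a peak, where the share over all protein-coding genes was 15.8%. For the cytosolic genes the count was 16 of 87 (18.4%, 11.6 to 27.8%). Both intervals hold the share over all genes. The gain was of 5 genes, all *Mrpl*.

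Each of those 5 genes has a TSS on the opposite strand close to its own, from 32 to 238 bp away. *Mrpl55* had the strongest of these peaks, with a score of 18.1 at 220 bp upstream, which the list gives to the non-coding RNA gene *2610507I01Rik* although it names a transcript of *Mrpl55* as the promoter. *Mrpl2* had a peak with a score of 9.56 at 973 bp upstream, near the edge of the window, which was given to *Klc4*, a kinesin light chain gene, again with a transcript of *Mrpl2* named as the promoter. Its centre lies 832 bp downstream of the *Klc4* TSS, which is 141 bp from that of *Mrpl2*. This peak is thus away from the DNA between these TSSs, although it counts among the 5. The peaks of *Mrpl55*, *Mrpl2* and *Mrpl21* had scores above the median of all promoter-TSS peaks. *Mrpl21* had a peak with a score of 7.77 at 90 bp upstream that was given to *Ighmbp2*, a helicase gene. *Mrpl18* had one with a score of 5.78 at 159 bp upstream, given to *Tcp1*, a subunit of a cytosolic chaperonin. *Mrpl50* had one with a score of 4.38 at 57 bp upstream, given to *Zfp189*.

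Divergent neighbours were common among these genes. A TSS of another gene on the opposite strand, from 1000 bp upstream to 100 bp downstream, was found for 31 of 78 genes (39.7%, 29.6 to 50.8%). The share was 15.8% of all protein-coding genes and 23.0% (15.4 to 32.9%) of the cytosolic ribosomal protein genes. It was similar, 16 of 39 (41.0%, 27.1 to 56.6%), in the other genes of mitochondrial translation described below, so it is not particular to the 78 genes. Of the 31, 8 had a peak from -1000 to 100 bp of the TSS (25.8%, 13.7 to 43.2%), among them *Mrpl2* with its peak 973 bp upstream. That share was close to the 26.5% of all genes with such a neighbour. Of the 47 without a neighbour, 10 had such a peak (21.3%, 12.0 to 34.9%), where the share over all genes without a neighbour was 13.7%. The 8 were all *Mrpl* genes, 8 of 21 (38.1%, 20.8 to 59.1%), and 0 of the 10 *Mrps* genes with a divergent neighbour had a peak (upper bound 27.8%). The numbers of genes are small, and the difference between *Mrpl* and *Mrps* genes was not tested.

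**Figure D2:**
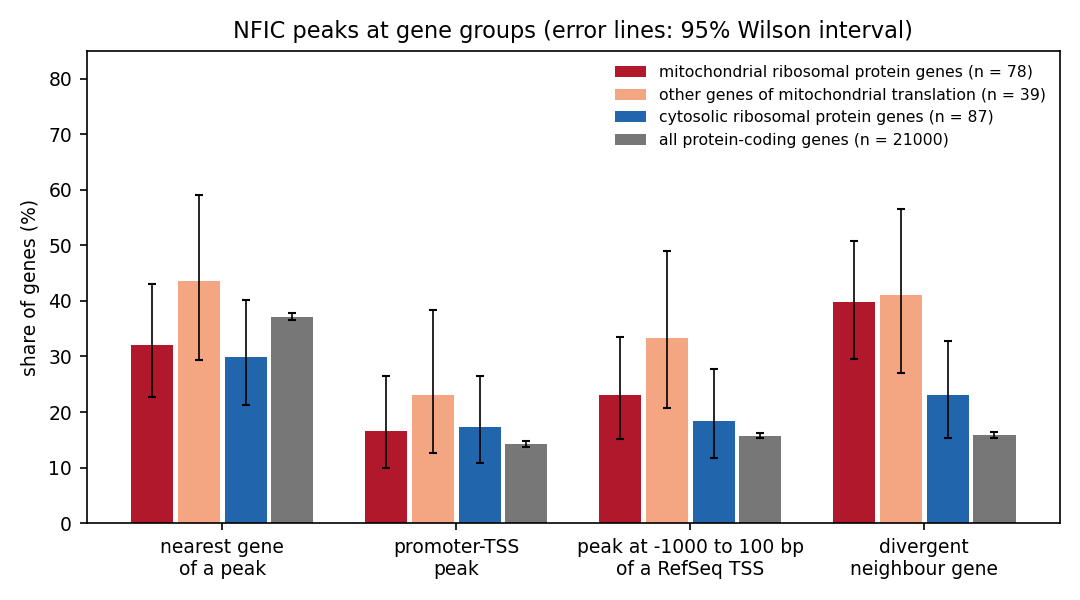
Shares of genes, in percent, in 4 groups for each of 4 properties, with 95% Wilson intervals as error lines. The interval of the mitochondrial ribosomal protein genes holds the share of all protein-coding genes for each count of peaks, and lies above it for divergent neighbours, 29.6 to 50.8% against 15.8%.

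Of the 78 genes, 48 had neither an assigned peak nor a peak from -1000 to 100 bp of a TSS. Among *Mrpl* genes these were *Mrpl3*, *Mrpl9*, *Mrpl10*, *Mrpl11*, *Mrpl12*, *Mrpl19*, *Mrpl20*, *Mrpl22*, *Mrpl24*, *Mrpl27*, *Mrpl28*, *Mrpl32*, *Mrpl33*, *Mrpl35*, *Mrpl38*, *Mrpl40*, *Mrpl43*, *Mrpl46*, *Mrpl47*, *Mrpl48*, *Mrpl49*, *Mrpl51*, *Mrpl52*, *Mrpl53*, *Mrpl54* and *Mrpl57*. Among *Mrps* genes they were *Mrps2*, *Mrps5*, *Mrps6*, *Mrps7*, *Mrps9*, *Mrps10*, *Mrps11*, *Mrps12*, *Mrps17*, *Mrps18b*, *Mrps18c*, *Mrps21*, *Mrps24*, *Mrps25*, *Mrps26*, *Mrps27*, *Mrps28*, *Mrps30*, *Mrps33*, *Mrps34*, *Mrps35* and *Mrps36*. They include *Mrpl12*, whose product forms the factor-binding stalk, and *Mrpl46* and *Mrps11*, which diverge from a common promoter. Absence from a merged list of unknown depth does not show that NFIC was absent.

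Beyond 1000 bp of the TSS lay 26 of the 42 peaks, in 12 genes, and 9 of the 25 genes with a peak had peaks only there. That share, 36.0% (20.2 to 55.5%), compares with 49.7% of all protein-coding genes with a peak. Of the 26 peaks, 14 were intergenic, 7 lay in an intron, exon or 3' UTR of another gene, and only 5 lay in an intron of the gene itself. Assignment by the nearest TSS therefore ties 21 of these peaks to a mitochondrial ribosomal protein gene by distance alone.

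Peaks assigned to *Mrpl37* show this most plainly. It had 4 peaks, of which 3 lay in introns of *Ssbp3*, a gene for a DNA-binding protein, 70455, 60476 and 47688 bp from the TSS of *Mrpl37*. The most distant had a score of 13.5, and the others 6.57 and 6.37. The peak at the shared promoter of *Mrpl37* and *Cyb5rl* was the lowest of the 4.

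*Mrps22*, for a protein particular to mitochondrial ribosomes, also had 4 peaks, all intergenic and upstream. They lay 12582, 21795, 40610 and 65524 bp away, with scores of 10.4, 3.98, 7.97 and 10.6. *Mrps23* had 3 peaks. The highest, with a score of 12.9, was 3337 bp downstream of the TSS in its own intron 1 and held the pair of NFI sites printed above, while those at -6305 bp (an intron of *Cuedc1*) and 11855 bp had scores of 4.18 and 4.58 and neither the full nor the core site. Thus within 1 gene the peak with NFI sites was the strongest, whereas for *Mrps22* the peaks with scores of 10.6 and 10.4 had no core site. That with a score of 10.6 did hold the short NFI letters TTGGCA.

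*Mrps18a* had 3 peaks, at -26674 bp, -17469 bp and 7664 bp, with scores of 7.37, 7.97 and 6.57. Each of the 3 held a full NFI site with 1 mismatch. *Mrpl14*, for a counterpart of a bacterial large subunit protein, had peaks at 8042, 9646 and 16233 bp with scores of 6.17, 5.58 and 7.97, of which only that at 9646 bp held a full site. That window was 74% repeat-masked sequence. A repeat share of 50% or more was found in 2 of the 42 peaks (4.76%) beside 2.10% of all peaks, and the other, in intron 4 of *Mrpl45* with 75%, also held a full site.

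Away from promoters, the highest scores were those of the intergenic *Mrpl1* peak (13.7, at -3073 bp), the *Mrpl37* and *Mrps23* peaks already described, and the intergenic *Mrpl45* peak (11.6, at -13459 bp). *Mrpl45* codes for the protein that faces the inner membrane at the tunnel exit, and its other peak lay in intron 4 with a score of 6.17. *Mrpl1* was the only gene with a promoter peak and a stronger peak within 5000 bp of it. The remaining distal peaks, of *Mrpl4*, *Mrpl13*, *Mrpl16*, *Mrpl39* and *Mrpl58*, had scores from 3.78 to 8.56.

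**Figure D3:**
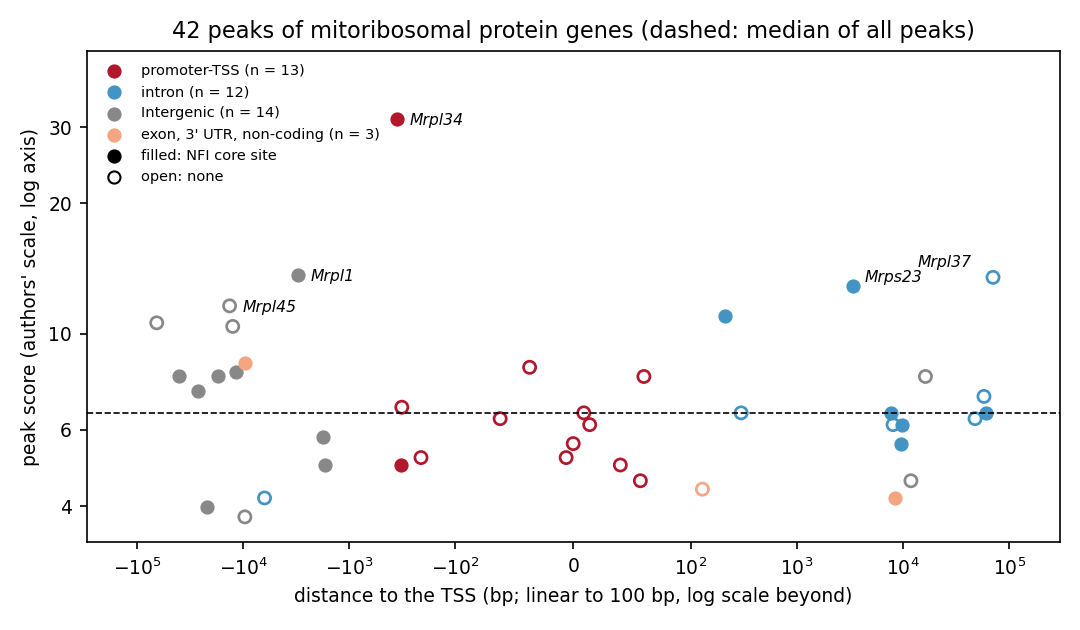
Score of each of the 42 peaks (authors' scale, log axis) against its distance to the TSS in the list (linear to 100 bp, log scale beyond). Filled points hold an NFI core site, and the dashed line is the median score of all peaks, 6.57. Among promoter-TSS peaks, 2 of 13 are filled, against 16 of 29 of the other peaks.

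As a group the 42 peaks were neither high nor low in the list. Their median score was 6.57 (interval 5.78 to 7.97), equal to the median of all peaks, and ranged from 3.78 to 31.3. A score at or above the median was found for 22 of 42 peaks (52.4%, 37.7 to 66.6%), against 51.6% of all peaks. For the 38 peaks of cytosolic ribosomal protein names, which include 5 peaks at 3 pseudogenes or non-coding genes, the median was 5.28 (4.38 to 6.37), and 12 peaks (31.6%, 19.1 to 47.5%) reached the median of the list. In promoter-TSS peaks the medians were 6.17 (4.98 to 7.97) for the mitochondrial and 4.78 (4.18 to 6.77) for the cytosolic genes, beside 6.37 for all such peaks. The intervals of both groups overlap. The focus ratio, the fraction of tags near the peak centre, had a median of 0.687 beside 0.684 over all peaks.

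The median absolute distance to the TSS was 6984.5 bp (328 to 9745 bp), against 10438.5 bp over all peaks and 2100 bp (233 to 11608 bp) for the cytosolic names. This order turned in the upper 2 quartiles of score, where the median was 10670.5 bp beside 9926.5 bp over all peaks. Peaks within 1000 bp made up 16 of 42 (38.1%, 25.0 to 53.2%) beside 27.4% of all peaks. Beyond 10000 bp lay 14 of 42 (33.3%, 21.0 to 48.4%) beside 50.9%. Introns held 28.6% (17.2 to 43.6%) of the 42 peaks and 40.8% of all peaks, and intergenic DNA held 33.3% and 30.6%.

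Sequences were searched in 200 bp around each peak centre on both strands. With 1 mismatch allowed among its 10 fixed bases, the full NFI site was present in 9 of the 42 peaks (21.4%, 11.7 to 35.9%), where the share over all peaks was 11.8%. In promoter-TSS peaks it was present in 1 of 13, that of *Mrpl41* (7.69%, 1.37 to 33.3%), beside 4.50% of all promoter-TSS peaks. In the other classes it was present in 8 of 29 (27.6%, 14.7 to 45.7%) beside 13.7%. The 9 peaks come from 7 genes, with 3 of them at *Mrps18a*, so they are not independent.

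The shorter core site, with 1 mismatch allowed among its 8 fixed bases, gave another picture, and was added after the full site had been counted. It was present in 18 of 42 peaks (42.9%, 29.1 to 57.8%), where the share over all peaks was 51.8%. In promoter-TSS peaks it was present in 2 of 13 (15.4%, 4.33 to 42.2%), those of *Mrpl34* and *Mrpl41*, where the share over all promoter-TSS peaks was 36.0%. In the other classes it was present in 16 of 29 (55.2%, 37.5 to 71.6%) beside 55.9%. Among cytosolic ribosomal protein genes, 0 of 15 promoter-TSS peaks held a core site (upper bound 20.4%). Of the 5 TSS peaks given to divergent neighbours, those of *Mrpl2*, *Mrpl18* and *Mrpl55* held a core site with 1 mismatch, which made 5 of 18 (27.8%, 12.5 to 50.9%) over all members with a peak from -1000 to 100 bp. The share over all genes was not counted for this window, and the 36.0% above is for the promoter-TSS class. Without a mismatch, the core site was present in 10 of 42 peaks (23.8%, 13.5 to 38.5%) beside 13.4% of all peaks. Of these 10, 9 lay outside the promoter class (90%, 59.6 to 98.2%), beside 92.6% over all peaks with such a site. The short NFI letters TTGGCA were present in 16 of 42 peaks (38.1%, 25.0 to 53.2%) beside 33.6% of all peaks. In promoter-TSS peaks they were present in 2 of 13 (15.4%, 4.33 to 42.2%) beside 19.6%.

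The share of promoter-TSS peaks with a core site also varied with the score over the whole list, 50.1% in the upper 2 quartiles and 22.3% in the lower 2. Of the promoter peaks of the mitochondrial ribosomal protein genes, 1 of 5 in the upper and 1 of 8 in the lower quartiles held it. With 13 peaks, a lower share than in all promoter peaks could not be told from the same share, since the interval for the 13 holds 36.0%.

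Letters of other factors were counted in the same 13 promoter-TSS peaks, whether or not they held an NFI site. The ETS letters CCGGAAG were present in 5 of 13 (38.5%, 17.7 to 64.5%), in *Mrpl17*, *Mrpl30*, *Mrpl42*, *Mrps16* and *Mrps31*, beside 11.2% of all promoter-TSS peaks. The NRF1 letters were present in 3, in *Mrpl30*, *Mrpl39* and *Mrpl44* (23.1%, 8.18 to 50.3%), beside 9.02%. The YY1 letters AAGATGGC were present in 2, in *Mrpl37* and *Mrpl42* (15.4%, 4.33 to 42.2%), beside 2.14%. SP letters (GGGCGG) were present in 6 of 13 (46.2%, 23.2 to 70.9%) beside 58.5%, and CCAAT, the NFY letters, in 4 of 13 (30.8%, 12.7 to 57.6%) beside 25.7%. Of the 26 peaks beyond 1000 bp, 0 held ETS, NRF1, YY1 or SP letters, where shares over all such peaks were 1.24% for ETS, 0.522% for NRF1, 0.931% for YY1 and 8.46% for SP. The median GC content was 61.5% in the promoter-TSS peaks and 51.2% in those beyond 1000 bp, beside 65% and 52.0% over all peaks of each kind. The letters searched for ETS, NRF1 and SP factors are rich in G and C, and the part of base composition in these shares was not tested.

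**Figure D4:**
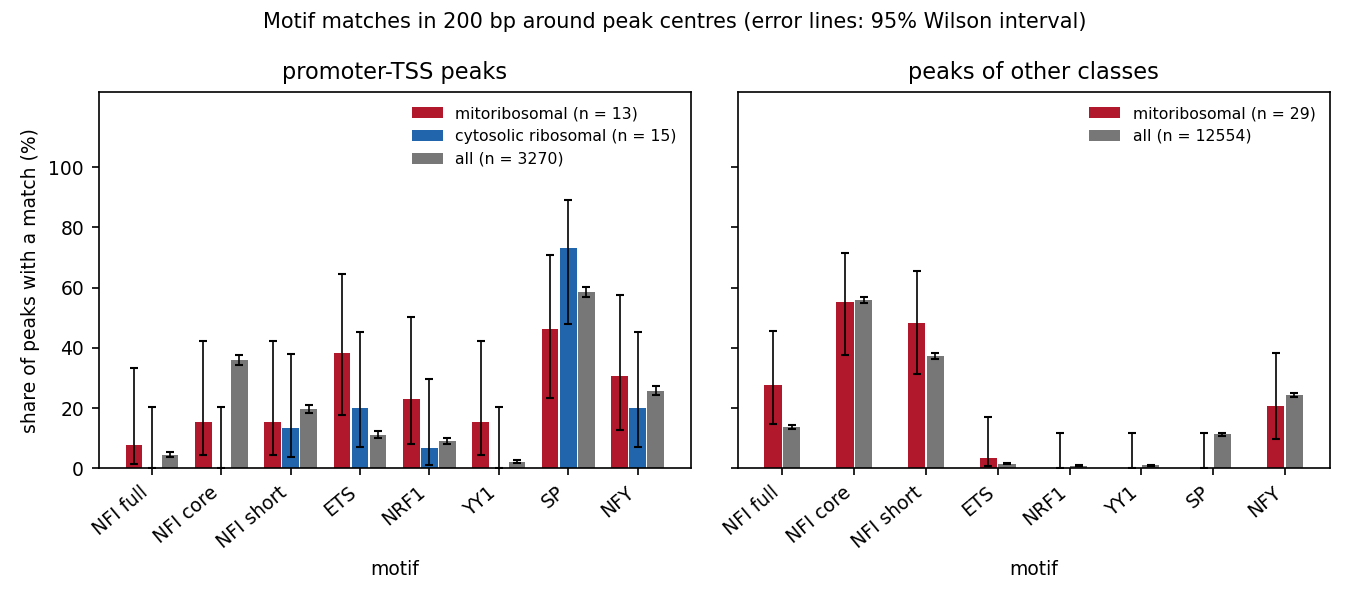
Shares of peaks, in percent, with a match to each motif in 200 bp around the centre, with 95% Wilson intervals as error lines. In promoter-TSS peaks (left), the mitochondrial ribosomal protein genes had 15.4% with the NFI core site and 38.5% with ETS letters, beside 36.0% and 11.2% of all such peaks, and in the other classes (right) they had 55.2% with the core site beside 55.9%.

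The same letters were counted in the RefSeq promoters themselves, from 250 bases before to 50 after the TSS, for the 69 of 78 genes with an entry. ETS letters were present in 26 (37.7%, 27.2 to 49.5%) beside 13.3% of 16853 promoters, YY1 letters in 12 (17.4%, 10.2 to 28.0%) beside 3.64%, and NRF1 letters in 14 (20.3%, 12.5 to 31.2%) beside 9.94%. ACTACA and TCC with 2 free bases between them, the letters of ZNF143 and THAP11, were present in 5 (7.25%, 3.13 to 15.9%) beside 3.21%. The median number of CG pairs was 21, against 15 over all promoters, at a similar GC content of 58.3% and 57.7%. SP letters were present in 49.3% beside 50.7%, CCAAT in 39.1% beside 42.6%, and the NFI core site in 11.6% (5.99 to 21.2%) beside 18.1%. TGACGTCA (CRE) was present in 2.90% beside 2.62%, CACGTG (E-box) in 7.25% beside 9.16%, AAGGTCA (ERR) in 5.80% beside 4.68% and the short NFI letters TTGGCA in 11.6% beside 15.3%. Among 67 promoters of cytosolic ribosomal protein genes, 24 held ETS letters (35.8%, 25.4 to 47.8%). Their median number of CG pairs was also 21. The higher ETS share and number of CG pairs were thus not particular to the mitochondrial ribosomal protein genes. Shares in the cytosolic group were lower for YY1 letters (8.96%, 4.17 to 18.2%) and NRF1 letters (10.4%).

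Promoters of the group with and without a peak were then set side by side. ETS letters were present in 5 of the 18 promoters with a peak from -1000 to 100 bp (27.8%, 12.5 to 50.9%) and in 21 of the 51 without one (41.2%, 28.8 to 54.8%). CCAAT was present in 10 of 18 (55.6%, 33.7 to 75.4%) and in 17 of 51 (33.3%, 22.0 to 47.0%). The NFI core site was present in 1 of 18 (5.56%, 0.988 to 25.8%) and in 7 of 51 (13.7%, 6.81 to 25.7%), and the letters of ZNF143 and THAP11 in 3 of 18 (16.7%, 5.84 to 39.2%) and 2 of 51 (3.92%, 1.08 to 13.2%). The intervals overlap in each case. The median number of CG pairs was 21.5 and 21.

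Other genes of mitochondrial translation were looked at as a reference from the same pathway: assembly factors, initiation, elongation and release factors, rRNA methyltransferases and ribosomal proteins with other symbols. Of 39 such genes, 17 (43.6%, 29.3 to 59.0%) were the nearest gene of a peak, beside 37.2% of all protein-coding genes. A promoter-TSS peak was assigned to 9 (23.1%, 12.6 to 38.3%), beside 14.2%. Both intervals hold the share of all genes. A peak from -1000 to 100 bp of a RefSeq TSS was found for 13 (33.3%, 20.6 to 49.0%), beside 23.1% of the mitochondrial ribosomal protein genes and 15.8% of all protein-coding genes. For this last count, unlike those before it, the interval of these 39 genes lies above the share of all genes. It also does so for a peak within 1000 bp of a RefSeq TSS, 16 of 39 (41.0%, 27.1 to 56.6%) beside 20.4%. In both cases the interval of the mitochondrial ribosomal protein genes holds the share of all genes, and the intervals of both groups overlap. The highest promoter-TSS scores were 17.1 for *Mtrf1l*, a release factor, 14.1 for *Taco1*, a translational activator of a cytochrome c oxidase subunit, and 8.76 for *Lrpprc*, which stabilizes mitochondrial mRNAs. The peak of *Mtrf1l* held a full NFI site with 1 mismatch. In the cytosolic genes the highest were 11.8 for *Rps21*, 7.97 for *Rpl37* and 7.77 for *Rps19*. In each of these groups the highest promoter score was below that of *Mrpl34*.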

How the data were processed

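The data are the merged, annotated NFIC peak list that the authors deposited on mm10, made from 3 ChIP libraries and 1 input library of wild-type pancreas. The submitters' processing notes name BWA, Picard and MACS2, and the file header names HOMER annotation. The methods also name RUbioSeq+ and HOMER, in a paragraph on downloaded data. Thresholds, versions and the role of the input are not given in the sources used here. The peak score is the authors' own, as deposited, on a scale not stated, and was used only to rank peaks. The focus ratio was deposited as a fraction of a peak's tags. The list has 0 columns of per-sample values.

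Genes were chosen by symbol. The genes, lists and comparisons were chosen with earlier results of these data known. Shares were counted over 21000 protein-coding genes with a curated RefSeq mRNA, with Wilson intervals (95%) and no tests. Of the 43 names of the list of other mitochondrial translation genes, 3 were not found in the annotation under those symbols and 1 belongs to the group itself. Genes named are those with a promoter-TSS peak, the 5 with the highest score, those with 3 or more peaks, those with a TSS within 1000 bp of a peak given to another gene, those without a peak, and the 3 highest promoter-TSS scores of each reference group. The remaining genes with a peak, the neighbours and the matches in *Mrpl23* were named after their values were seen. Of the peaks, 15813 have a gene number found in RefSeq. Motifs (12) were searched as fixed letters on both strands in GRCm38.p6, and the promoters are from RefSeq. The search was tested on simulated data and found 100% of planted sites. Alternatives varied the score quartiles, the promoter window, the assignment of peaks, the mismatches, the letters and the window of the motif search. Python 3.11.15, pandas 2.3.3, scipy 1.17.1 and pysam 0.24.0 were used.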

Additional observations from a re-analysis of the deposited data

How the results depend on the processing

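Of 20 alternatives, 14 left the value within the limit used (1.5 times for a count, the interval for a share or median). When peaks below the median score were left out, the genes with a peak fell to 16 (20.5%, beside 21.9% of all genes) and those with a promoter-TSS peak to 5 (6.41% beside 6.98%), while the median absolute distance became 10670.5 bp, above the 9926.5 bp of all peaks. With promoters taken from -1000 bp to the TSS, 8 genes had a promoter peak (10.3% beside 10.7%). The share of genes with a promoter peak, above that of all genes in the main count (16.7% beside 14.2%), was thus below it in both of these counts, and also from -5000 bp to the TSS (12.8% beside 13.3%). The share of peaks with an NFI full site was 2.38% with 0 mismatches and 42.9% with the shorter core letters, the latter added after the data were seen. The share lay below that of all peaks for the core letters with 1 mismatch (42.9% beside 51.8%), and above it for the full letters with 1 mismatch (21.4% beside 11.8%) or 0 (2.38% beside 1.34%) and for the core letters with 0 (23.8% beside 13.4%), so the order depends on the letters and the mismatches together. No paired analysis was possible because the list holds 1 merged value per peak. Small numbers of genes, an unknown depth and assignment to the nearest TSS limit all counts.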
